A study of Homo sapiens and Mus musculus with 30 samples.

Results

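Ribosomal RNA (rRNA) methylation was compared between newborn and adult mouse cortex in 2 of the 30 samples of a RiboMeth-seq series. The first was cortex at P0 (the day of birth) and the second was adult cortex, both labelled brain tissue of WT genotype. The members are these 2 samples with 3 libraries each, chosen by their sample titles, and the readout is the methylation score at known 2′-O-methyl sites of 18S, 28S and 5.8S rRNA. Neither strain, sex, adult age nor any pooling of animals is stated in the labels. The labels call the libraries of a sample triplicates without saying that they came from separate animals, so p-values measure the spread between these libraries, which may be technical. Whole tissue was used, so a score is an average over the ribosomes of all its cells, and a change in the mix of cells and a change within a cell type cannot be told apart. The tissue label could not be checked against marker genes, because the files used hold read ends on rRNA only.

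Ribose methylation of rRNA is added during ribosome assembly by the methyltransferase fibrillarin, which is brought to each site by a box C/D small nucleolar RNA (SNORD) that pairs with the rRNA around it. Most sites of mature ribosomes are methylated nearly completely, while a smaller group is methylated in only a share of the ribosomes. In RiboMeth-seq the RNA is cut by alkali, and a methyl group blocks the cut on the 3′ side of its nucleotide, so methylated positions carry fewer read ends than their neighbours. The score divides the read ends of a nucleotide by a weighted mean of its 6 neighbours per side and takes this ratio from 1, with 0 as the lowest value. A score of 0 means no detectable protection, and a score of 1 means that no read ends were found at the site. The score is a relative measure and not an absolute share of methylated ribosomes.

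A list of 108 known sites was used, of which 41 lie on 18S, 65 on 28S and 2 on 5.8S rRNA. Of these, 107 were tested, because 18S Um1668 had a score of 0 in all 6 libraries. Site names keep the human numbering of published target lists, with the methylated base in front of the number. Positions refer to the mouse rRNA sequences in the files, numbered from the 5′ nucleotide as 1, with lengths of 1871, 4731 and 156 nucleotides. Genes for rRNA lie in repeated arrays, so no genome position is given. The sequence around a site is where its guide pairs, and the mouse and human sequences were identical over 21 nucleotides at 106 of the 108 sites. The sequences below belong to the 4 largest gains and the 4 largest losses among the called sites, with the methylated nucleotide in capitals.
28S Am4560: ugccaugguaAuccugcucag
5.8S Um14: cucuuagcggUggaucacucg
18S Gm436: auuccggagaGggagccugag
18S Um354: uucgaacgucUgcccuaucaa
28S Gm4593: cgcagguucaGacauuuggug
18S Am576: uccacuuuaaAuccuuuaacg
28S Gm4607: uuugguguauGugcuuggcug
18S Am668: ugcugcaguuAaaaagcucgu

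Depth was high in both groups, with 24028030, 18572582 and 17584677 read ends in the P0 libraries and 28843841, 27222885 and 17174323 in the adult libraries. The lowest neighbour mean at any tested site in any library was 649.3 read ends. The median SD between libraries of a score was 0.00434 at P0 and 0.00705 in the adult, against median counting errors of 0.00267 and 0.00331. Counting errors cover counting only, since amplified reads without molecular identifiers are not independent molecules. The P0 libraries carry one set of 3 index sequences and library number L17 in the file headers, and the adult libraries carry the other set and number L29. Age, index set and library number therefore cannot be told apart in the cortex comparison. Undifferentiated human H9 embryonic stem cells were sequenced with 3 libraries of each set. There the sets differed by a median of 0.0117 in size over the tested sites, by more than 0.1 at 4 sites and by at most 0.237. Set 2 minus set 1 in H9 cells had the same sign as adult minus P0 at 35 of the 57 sites called in cortex. Among mouse samples with set 1, all cortex from E12.5 to P0, the median score averaged over libraries was 0.969 to 0.983. With set 2 it was 0.852 in cortex at E11 and at most 0.965 in any mouse sample. Stage, region and index set were not separated in these values.

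The adult cortex differed from the P0 cortex at many sites, mostly by small losses of score. limma with Benjamini-Hochberg adjustment called 57 of the 107 sites (53.3%), of which 46 fell (43.0%) and 11 rose (10.3%) in the adult. The losses were small at most sites, with 37 of the 46 below 0.05, and 38 of the 46 sites kept a score of at least 0.9 in the adult. The gains were larger and started lower, with 10 of the 11 from a P0 score below 0.95. The median score over all tested sites was 0.983 at P0 and 0.965 in the adult, and the median change was -0.0163.

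One further site, 18S Cm621 (position 623), was on the list as first written and was left out after its scores were seen, because it was not certain as a site and the positions beside it had scores of similar size. Its score was 0.417 ± 0.0619 at P0 and 0.177 ± 0.152 in the adult (SD, n = 3). The positions before and after it had mean scores of 0.539 and 0.226 at P0 and of 0.422 and 0 in the adult. Kept in the list, it was called by limma with a change of -0.241 (adjusted p = 0.0380), which only 28S Gm4593 and 18S Am576 exceeded among the losses. The total was then 58 of 108 sites, with the same 57 sites among them.

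The common downward shift moved with the library groups, so the counts were repeated with scores scaled to the 75th percentile of each library. All 11 gains and 25 of the 46 losses were called in the same direction after this scaling. In all, 19 sites (17.8%) rose and 25 (23.4%) fell on that scale. At the positions outside the list, which are not listed as methylated, the libraries of the 2 groups also differed. A fit over every rRNA position called 877 of 6602 such positions (13.3%) and 24 of the 107 listed sites (22.4%). The 3 libraries of one group lay wholly above those of the other at 77 listed sites (72.0%) and at 2062 of the other positions (31.2%). Differences at those other positions were large, with a median size of 0.0965 against 0.0235 at the tested sites. Outside the list, 12 positions fell at least as far as 28S Gm4593 and 277 at least as far as 18S Am576. There 407 rose at least as far as 28S Am4560. Of the 56 such positions with a P0 score of at least 0.75, 46 fell and 0 rose without overlap, with a median change of -0.393. That group was itself chosen by its P0 score.

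**Figure D1:**
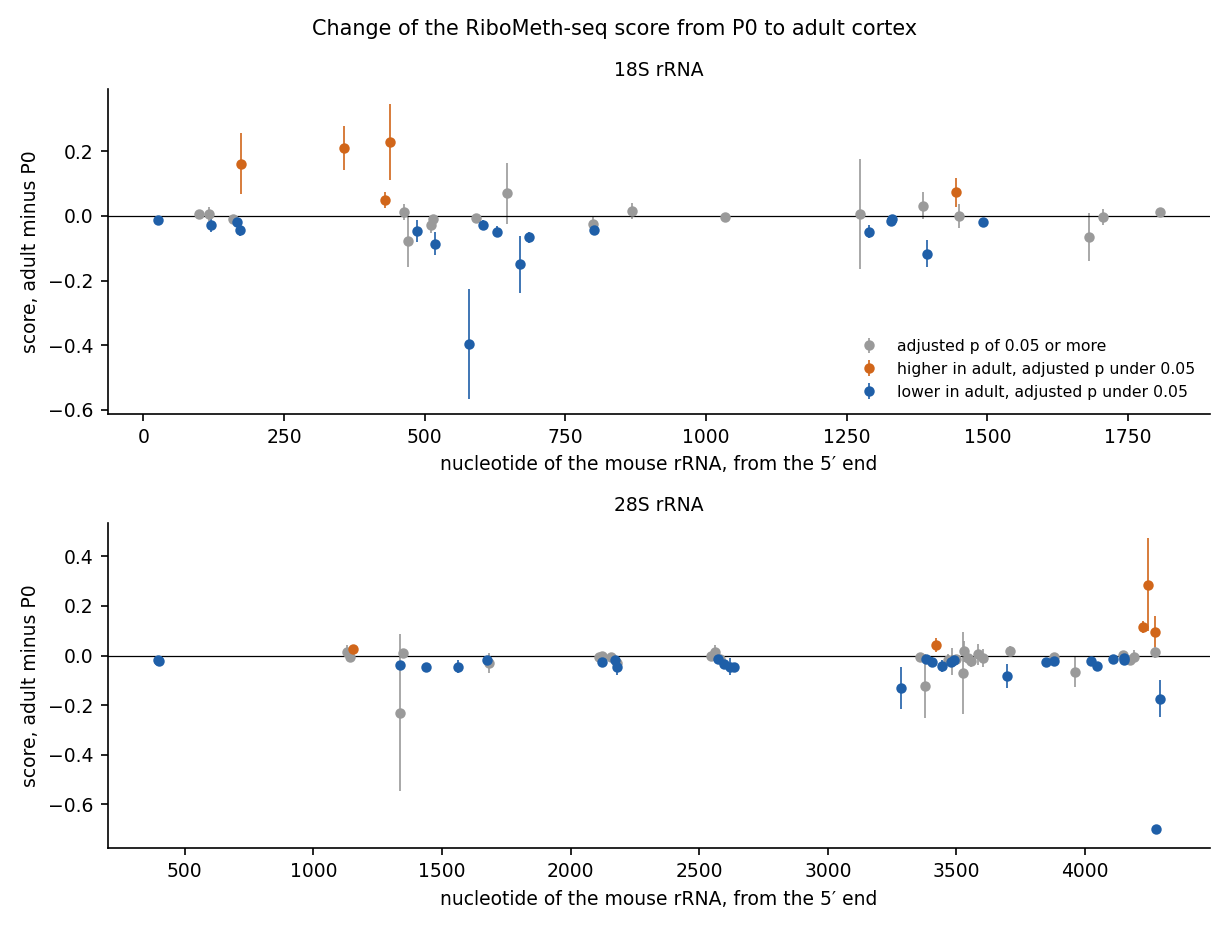
Adult minus P0 score (y axis, fraction) at each tested site of 18S and 28S rRNA, placed by nucleotide of the mouse rRNA (x axis); bars are 95% confidence intervals from limma with 3 libraries a group, and colours mark sites called higher or lower. Most points lie close to 0, and the change of -0.699 at 28S Gm4593 stands near the right end of 28S rRNA; the 2 sites of 5.8S rRNA are not drawn.

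The largest change among the tested sites was a loss at 28S Gm4593, the guanosine at position 4276 that is a published target of SNORD78. Its score was 0.695, 0.697 and 0.706 in the P0 libraries and 0 in each adult library. By this score, every P0 library showed protection at the site and no adult library did. Its neighbours include the listed sites Gm4588 and Um4590, which held few read ends and lower the neighbour mean. The difference was -0.699 ± 0.00663 (SE, n = 3 libraries each, limma adjusted p = 2.2e-09), and after scaling it was -0.705. All 3 adult scores sit at the floor of 0, which hides the spread between the adult libraries. The SE and p-value therefore do not take in that spread and are too small. In read ends, the site held 1853, 1277 and 922 at P0, where its neighbours averaged 6070.64, 4210.81 and 3140.86. In the adult it held 7364, 6164 and 4218, against neighbour means of 6828.03, 5484.61 and 3989.08. Read ends at the site were therefore 30.1% ± 0.626 of the neighbour mean at P0 and 109% ± 3.4 in the adult (SD, n = 3).

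The surroundings of 28S Gm4593 also differed between the groups. Over the 21 nucleotides centred on the site, the position 2 nucleotides downstream held 4.43, 3.22 and 3.91 times the mean of the window at P0 and 1.16, 1.14 and 1.03 times in the adult. A score recomputed from only 2 positions on each side gave a difference of -0.673 at the site. That window still includes the position 2 nucleotides downstream, with a larger share of the weight, so it does not remove this difference in surroundings. Left out of the neighbours, the nearby listed sites changed the difference to -0.670, and the adult scores then stood a little above the floor. In cortex at E17, again with index set 1, the score was 0.779 ± 0.0192, so the protection was present at both of these stages. In H9 cells the 2 index sets gave 0.9505 and 0.9091 at this site.

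**Figure D2:**
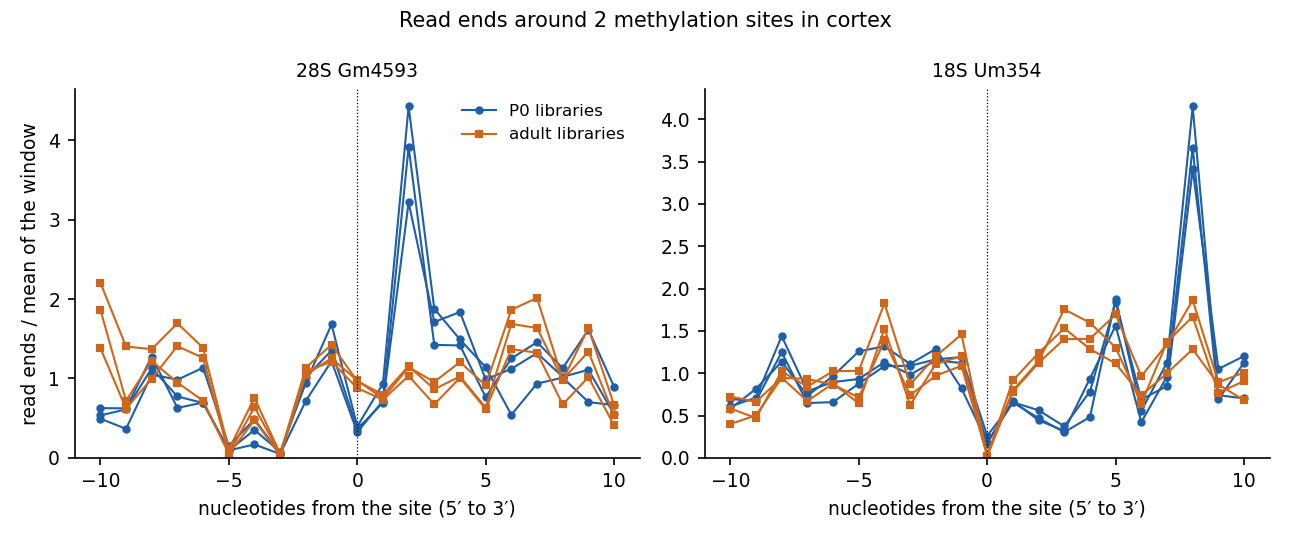
Read ends at each nucleotide from 10 before to 10 after 28S Gm4593 (left) and 18S Um354 (right), divided by the mean of the window (y axis, ratio), with 1 line for each of the 3 P0 and 3 adult cortex libraries. At Gm4593 the P0 lines dip to between 0.322 and 0.395 and the adult lines stay between 0.879 and 0.975, while at Um354 the dip deepens in the adult; the dips to the left of Gm4593 are the listed sites 28S Gm4588 and Um4590.

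Losses at 3 further sites were large. In 18S Am576 (position 578), a target of SNORD93, the scores were 0.948, 0.948 and 0.946 at P0 and 0.437, 0.696 and 0.522 in the adult. The P0 libraries were nearly alike and the adult libraries spread widely, but the groups did not overlap, with a difference of -0.396 ± 0.0704 (SE, limma adjusted p = 0.00416). In 28S Gm4607 (position 4290), a target of SNORD121 that lies 14 nucleotides downstream of Gm4593, the scores were 0.908, 0.902 and 0.929 at P0 and 0.744, 0.6995 and 0.771 in the adult. Every adult library was lower than every P0 library there, and the difference was -0.175 ± 0.0307 (SE, limma adjusted p = 0.00416). In 18S Am668 (position 670), a target of SNORD36, scores of 0.913, 0.943 and 0.910 at P0 stood against 0.818, 0.794 and 0.703 in the adult. This difference of -0.150 ± 0.0362 (SE, limma adjusted p = 0.0142) was lost without P0 library 2, where the adjusted p was 0.0510.

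Of the next 8 losses, 5 were in 18S and 3 in 28S rRNA, and all came from scores above 0.9 at P0. In 28S Gm3606 the score was 0.985 ± 0.000409 at P0 and 0.853 ± 0.0732 in the adult (SD, n = 3), and limma no longer called it when any P0 library was left out, with adjusted p between 0.0559 and 0.0635. In 18S Cm1391, a target of SNORD28, it fell from 0.996 ± 0.00182 to 0.879 ± 0.0333. In 18S Cm517, a target of SNORD56, it fell from 0.985 ± 0.00367 to 0.899 ± 0.0281. These are small changes in score, but the remaining read ends rose severalfold, at Cm1391 from 0.400% ± 0.182 to 12.1% ± 3.33 of the neighbour mean and at Cm517 from 1.53% ± 0.367 to 10.1% ± 2.81. The P0 libraries held only 14, 31 and 12 read ends at Cm1391. A rise in read ends was general, with a median edgeR change of -1.12 over all 107 sites (log2, negative for more read ends in the adult). In 28S Gm4020, a target of SNORD102, the score fell from 0.904 ± 0.0117 to 0.822 ± 0.0108, a limma call that was lost without P0 library 1 (adjusted p = 0.0796). The other 4 were 18S Gm683 (SNORD19), 18S Um1288 (SNORD110), 18S Um627 (SNORD65) and 28S Gm2863 (SNORD50). Their adult scores lay between 0.921 and 0.946, and their changes lay between -0.0658 and -0.0477.

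Gains were seen at 11 sites, and the 4 largest were at sites that were only partly protected at birth. In 28S Am4560 (position 4243), a target of SNORD119, the scores were 0.415, 0.579 and 0.678 at P0 and 0.773, 0.894 and 0.862 in the adult. The adult libraries were all higher, but the P0 libraries spread over a wide range, with a difference of 0.286 ± 0.0776 (SE, limma adjusted p = 0.0203). Without P0 library 2 or adult library 2 the adjusted p was 0.0537 or 0.0576. In H9 cells index set 2, the set of the adult libraries, gave a score 0.0997 higher than set 1 at this site.

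The gain at 5.8S Um14, a target of SNORD71 and 1 of only 2 known sites on that RNA, was of similar size. Its scores were 0.551, 0.660 and 0.790 at P0 and 0.914, 0.926 and 0.916 in the adult. All adult libraries stood above all P0 libraries, and the spread narrowed from an SD of 0.1201 to 0.00626. The difference was 0.252 ± 0.0631 (SE, limma adjusted p = 0.0161). The other 5.8S site, Gm75, a target of SNORD96, stood at 0.940 ± 0.0364 at P0 and 0.975 ± 0.0143 in the adult, and limma did not call its difference of 0.0351 (95% interval from -0.0107 to 0.0810, adjusted p = 0.150).

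In 18S rRNA, Um354 (position 356, SNORD90) had scores of 0.794, 0.713 and 0.803 at P0 and 0.983, 0.980 and 0.976 in the adult. This site moved from partial to nearly complete protection without overlap, and the difference was 0.210 ± 0.0282 (SE, limma adjusted p = 0.0019). Read ends at the site dropped from 22.9985% ± 4.93 of the neighbour mean to 2.03% ± 0.370. In H9 cells the site had a score of 0 with either index set. Gm436 (position 438), a target of SNORD100, had scores of 0.618, 0.531 and 0.658 at P0 and 0.854, 0.827 and 0.813 in the adult. The groups did not overlap, and the difference was 0.230 ± 0.0487 (SE, limma adjusted p = 0.00869), although Gm436 remained below 0.9 in all 3 adult libraries.

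The other 7 gains brought sites to adult scores between 0.932 and 0.990. The steadiest of them was 28S Am4541 (SNORD63), which lies 19 nucleotides upstream of Am4560 and went from 0.859, 0.859 and 0.877 to 0.984, 0.979 and 0.977, a difference of 0.115 ± 0.0107 (SE, limma adjusted p = 0.000589). In 18S Cm174 (SNORD45) the score was 0.817 ± 0.0783 at P0 and 0.978 ± 0.0166 in the adult, with P0 library 3 the lowest at 0.727. In 28S Gm4588 (SNORD91) it went from 0.836 ± 0.0396 to 0.932 ± 0.0222. That site lies 5 nucleotides upstream of Gm4593 and counts it among its neighbours, and with listed sites left out of the neighbours its gain was 0.0823 in place of 0.0962. The remaining 4 were 18S Um1442 (SNORD61), 18S Um428 (SNORD68), 28S Am3739 (SNORD46) and 28S Cm1327 (SNORD104), with gains of 0.0730, 0.0491, 0.0433 and 0.0266. Without adult library 2 only 5 gains were called, and 18S Cm174, 28S Am4560, 28S Gm4588, 18S Um1442, 28S Am3739 and 28S Cm1327 were lost.

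Cortex at E17 was made with the same index set and library number as P0, at a lower depth of 1536440 to 4898344 read ends. At E17 the score was 0.577 ± 0.101 at 28S Am4560, 0.618 ± 0.0221 at 18S Gm436 and 0.862 ± 0.0157 at 28S Am4541 (SD, n = 3). It was 0.637 ± 0.115 at 18S Um354 and 0.538 ± 0.102 at 5.8S Um14, each below the P0 mean. Among the losses it was 0.971 ± 0.0186 at 18S Am576 and 0.926 ± 0.00878 at 28S Gm4607. E17 was not tested against P0 here.

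**Figure D3:**
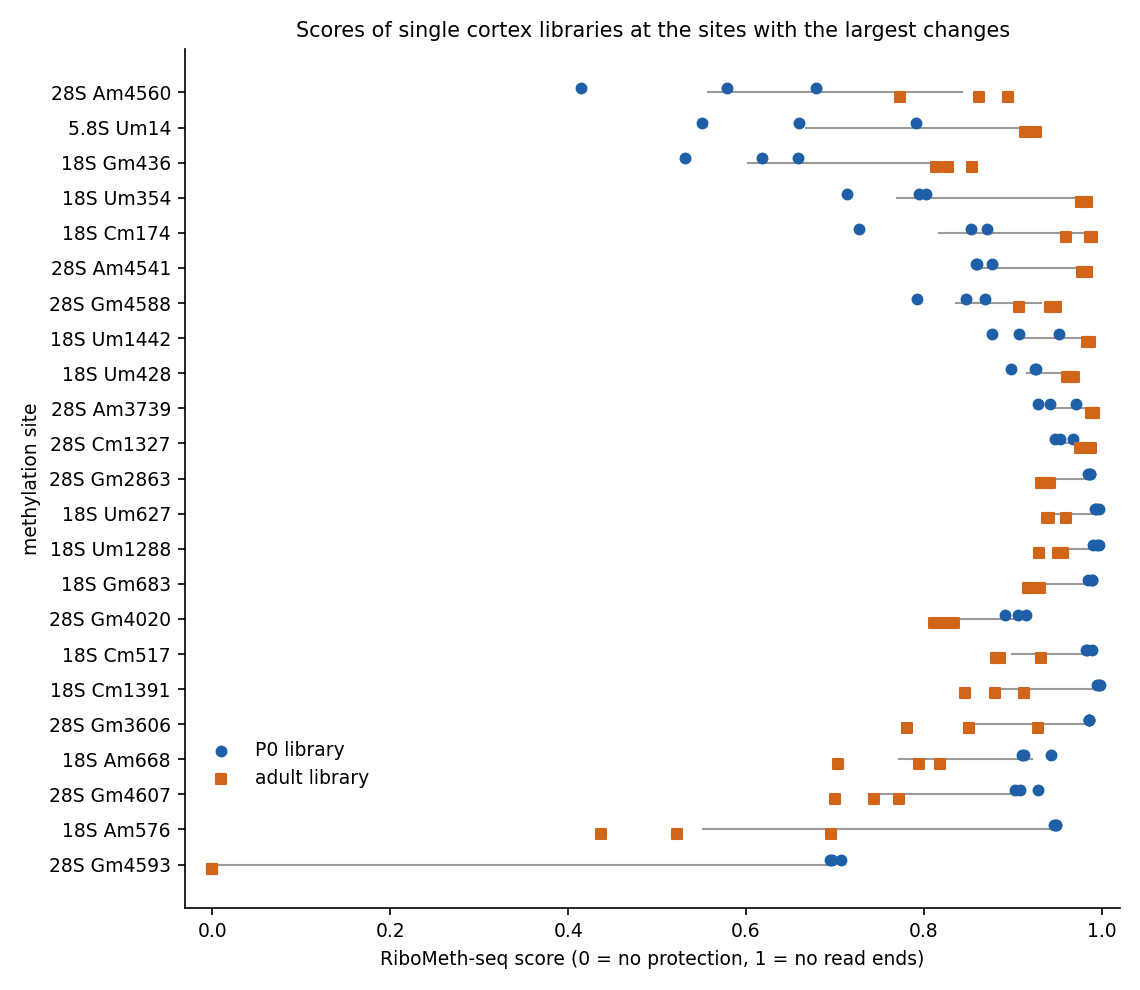
Scores (x axis, from 0 to 1) of the 3 P0 libraries (circles) and 3 adult libraries (squares) at the 11 called gains and the 12 largest called losses, ordered by change, with a line between the group means. Gains at the top start from P0 means between 0.557 and 0.956 and reach adult means of 0.832 to 0.990. The adult means of the losses stay above 0.7 except 18S Am576 at 0.552 and 28S Gm4593 at 0.

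Listed sites toward the 3′ end of 28S rRNA changed in both directions within a short distance. The 30 nucleotides from position 4266 to 4295 hold 4 listed sites, and the 30 from 4219 to 4248 hold 2, shown in capitals.
28S from Gm4588 to Gm4607: cgcagGuUcaGacauuugguguauGugcuu
28S from Am4541 to Am4560: ugaugAuguguuguugccaugguaAuccug
In the first stretch Gm4588 rose while Gm4593 and Gm4607 fell. In the second stretch both adenosines rose. Over all 14 tested sites above number 4300 in 28S rRNA, 3 rose and 7 fell, with changes from -0.699 to 0.286.

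Gains and losses were spread over the rRNAs and over the bases. In 18S rRNA 5 of 40 tested sites rose and 17 fell, in 28S rRNA 5 of 65 rose and 29 fell, and in 5.8S rRNA 1 of 2 rose. After scaling the excess of losses was smaller, with 8 gains and 10 losses on 18S, 10 and 15 on 28S, and again 1 gain on 5.8S rRNA. By methylated base, 3 of 33 A rose and 13 fell, 2 of 23 C rose and 5 fell, 2 of 31 G rose and 17 fell, and 4 of 20 U rose and 11 fell. After scaling 4 G rose and 12 fell, 5 U rose and 8 fell, 6 A rose and 3 fell, and 4 C rose and 2 fell. The stretch of 18S rRNA from Am576 to Gm867 had 6 losses and no gain among its 10 sites, with a median change of -0.0350, and all 6 losses were also called after scaling. The stretch from Um354 to Cm517 had 3 gains and 2 losses among 9 sites. Across all 107 tested sites the medians and counts given above serve as the comparison, and these groups were not tested against each other.

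The counts differed with the level at birth, and for the higher sites they depended on the scaling. Of the 97 sites with a P0 score of at least 0.9, 4 rose and 45 fell, with a median change of -0.0180. Of the 10 sites below 0.9 at P0, 7 rose and 1 fell. After scaling, 12 of the 97 rose and 24 fell, and the counts for the 10 lower sites were again 7 and 1. The score cannot exceed 1, so sites near it had no room to rise. The same P0 scores also set both the grouping and the change, so level and direction are not independent here. At P0, 6 sites had a score below 0.75, namely 18S Gm436, 18S Cm1272, 28S Am3846, 28S Am4560, 28S Gm4593 and 5.8S Um14. In the adult 5 sites did, namely 18S Am576, 18S Cm1272, 28S Am3846, 28S Gm4593 and 28S Gm4607. The 2 sites in both lists were low at both ages and overlapped between the groups, with 0.421 ± 0.0772 and 0.428 ± 0.130 at 18S Cm1272 and 0.707 ± 0.1004 and 0.637 ± 0.0708 at 28S Am3846.

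Sites with the same published guide did not always change alike. The SNORD45 family has 18S Um172 and Cm174 among its targets, which lie 2 nucleotides apart. Um172 fell from 0.986 ± 0.00655 to 0.944 ± 0.0128 while Cm174 rose, and both were called by limma with either scaling. Each counts the other among its neighbours, so their scores are not independent. With listed sites left out of the neighbours, the gain at Cm174 was 0.145 in place of 0.161. For SNORD68, 18S Um428 rose by 0.0491 and 28S Am2388 had 0.984 ± 0.00247 at P0 and 0.980 ± 0.0104 in the adult (limma adjusted p = 0.559). For the SNORD36 family, the change was -0.150 at 18S Am668 and -0.0134 at 28S Am3703, where the call was not kept after scaling. For the SNORD50 family, 28S Cm2848 and Gm2863 changed by -0.0441 and -0.0477, of which only Gm2863 was called after scaling. Differences between sites of a guide were not tested.

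The 2 ends of each read gave separate counts, and they did not bear out all changes equally. With 5′ read ends alone, all 46 losses had the same direction and 45 were called, and with 3′ read ends alone all 46 had the same direction and 20 were called. Over all 107 tested sites, 5′ ends alone called 75 lower and 10 higher, and 3′ ends alone called 21 lower and 6 higher. The 46 losses were chosen on the sum of both kinds, so agreement of the parts is no separate evidence. The loss at 28S Gm4593 was -0.726 from 5′ ends and -0.614 from 3′ ends, and at 18S Am576 it was -0.490 and -0.308. Of the 11 gains, 18S Um354, 18S Cm174 and 28S Am4541 were called with each kind of end alone, Um354 with 0.191 from 5′ ends and 0.215 from 3′ ends. At 18S Gm436 the gain was 0.358 from 3′ ends, while 5′ ends gave -0.0322. At 18S Um1442 the change was 0.139 from 3′ ends (limma adjusted p = 0.0451) and -0.00420 from 5′ ends. At 28S Am3739 it was 0.0601 from 3′ ends (limma adjusted p = 0.0561, not called) and -0.00273 from 5′ ends. At 18S Um428 the 2 kinds went opposite ways, and 5′ ends alone called it as a loss of -0.0208 (limma adjusted p = 0.00129), while the 0.0884 from 3′ ends was not called (adjusted p = 0.0560). At 5.8S Um14 the gain was 0.289 from 5′ ends. All read ends at this nucleotide were 5′ ends in every library. The change of 0 from 3′ ends therefore could neither bear out the gain nor go against it. Neighbours averaged between 161 and 1111 read ends for 3′ ends against 2127 to 8945 for 5′ ends.

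**Figure D4:**
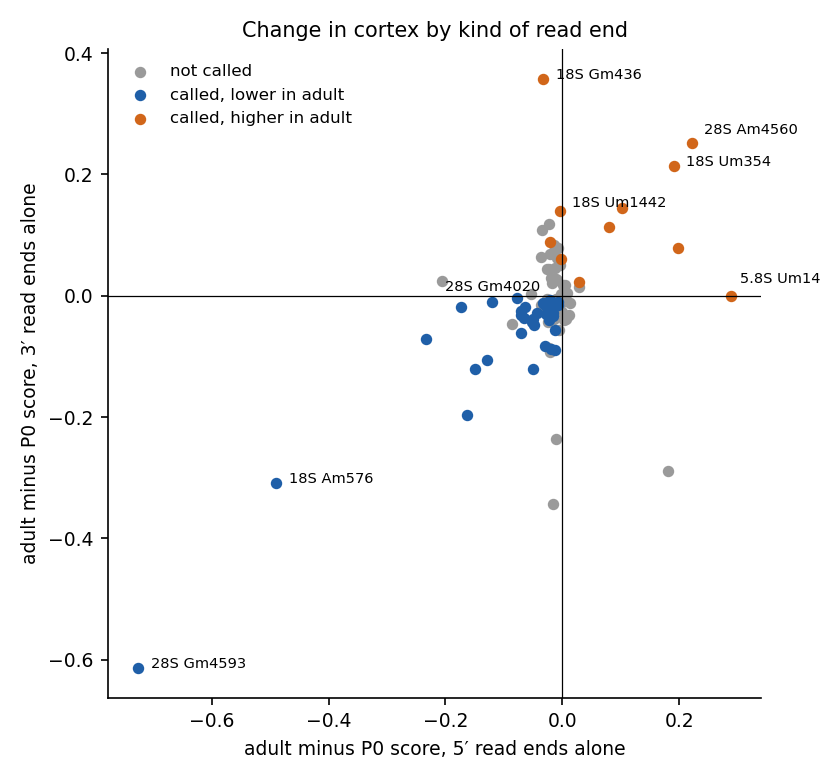
Adult minus P0 score from 5′ read ends alone (x axis) against 3′ read ends alone (y axis) for the 107 tested sites, coloured by the call with both kinds summed. All 46 losses fall in the lower left, while 18S Gm436 and 18S Um1442 sit high on the y axis near 0 on the x axis and 5.8S Um14 lies on the x axis at 0.289.

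Hippocampus, cerebellum and olfactory bulb were also sampled at P0 and as adult, again with 3 libraries each and WT genotype, and there both ages carry index set 2, with library number L30 at P0 and L29 in the adult. Of the 11 gains in cortex, 5 were higher in the adult in all 3 of these regions, namely 18S Um354, 18S Um428, 28S Am4541, 28S Am4560 and 5.8S Um14, against 11 of all 107 tested sites. In 18S Um354 the score went from 0.727 ± 0.0169 to 0.982 ± 0.00174 in hippocampus. It went from 0.695 ± 0.00714 to 0.938 ± 0.0284 in cerebellum, and olfactory bulb had 0.817 ± 0.0140 and 0.956 ± 0.00527. Adult minus P0 at 5.8S Um14 was 0.289, 0.114 and 0.0916 in these regions, and at 28S Am4541 it was 0.124, 0.0867 and 0.0624. At 28S Am4560 it was 0.127, 0.119 and 0.0914, below the 0.286 of cortex, where the P0 score of 0.557 was lower than the 0.708 to 0.777 of the other regions. The index set at P0 was a different one in cortex, and the difference in change was not called there (limma interaction adjusted p = 0.197). Gm436 rose by 0.483 in hippocampus but differed by -0.149 in cerebellum and -0.162 in olfactory bulb.

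Among the 46 losses, 6 were lower in the adult in all 3 other regions, namely 18S Am576, 18S Am668, 18S Cm1391, 28S Cm2848, 28S Gm4593 and 28S Gm4607, against 8 of all 107 tested sites. At 18S Am576 the change was -0.275, -0.251 and -0.127 in the order given above, and at 28S Gm4607 it was -0.0779, -0.270 and -0.171. At 18S Am668 it was -0.290 in cerebellum and -0.141 in olfactory bulb but -0.000327 in hippocampus, far within the spread of the libraries there. Its P0 scores in hippocampus, cerebellum and olfactory bulb were 0.756, 0.797 and 0.786, near the 0.772 of adult cortex. In the same order, the P0 scores were 0.820, 0.813 and 0.832 at 28S Gm3606 and 0.824, 0.890 and 0.862 at 18S Cm517. At 28S Gm4020 they were 0.716, 0.752 and 0.759. All of these lay below the adult cortex means of 0.853, 0.899 and 0.822. At 18S Am576, 18S Cm1391 and 28S Gm4607 the P0 scores of these regions lay above the adult cortex mean. Region and index set were not separated in these P0 values. For the smaller losses the regions went apart. In hippocampus 40 of the 46 sites were higher in the adult, where 99 of all 107 tested sites were higher, and in cerebellum all 46 were lower, where 96 of 107 were lower. The median score over the tested sites moved the same way. Hippocampus went from 0.904 to 0.965, cerebellum from 0.952 to 0.884 and olfactory bulb from 0.953 to 0.923. The part of such library-wide shifts in the small losses was not tested.

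The change in cortex was set against the mean change in the other regions in 1 limma fit over 24 libraries, and 6 of the 107 sites (5.61%) were called. The largest difference was at 28S Gm4593, where the score went from 0.581 ± 0.0484 to 0 in all 3 libraries of hippocampus. It went from 0.490 ± 0.0162 to 0.121 ± 0.0768 in cerebellum and from 0.435 ± 0.0190 to 0.186 ± 0.0485 in olfactory bulb. All 4 regions thus lost protection at this site, and the change in cortex differed from the mean of the others by -0.299 ± 0.0351 (SE, limma adjusted p = 7.5e-06). Adult cortex and adult hippocampus both sit at the floor of the score, so that the size of their losses is set by the P0 score. The floor also hides the spread between these adult libraries, which the SE and p-value therefore do not take in. Gains at 18S Um1442 and 28S Am3739 were greater in cortex by 0.0632 and 0.0381. Both calls were lost without olfactory bulb (limma adjusted p = 0.0784 each). The call at Am3739 was also lost without a trend in the limma prior (adjusted p = 0.0502) and without cortex P0 library 1 (adjusted p = 0.0607). At 28S Um4197, Um4468 and Am2802 the change in cortex minus the mean change elsewhere was -0.0233, -0.0215 and -0.0151. The other regions did not share a direction there, with a rise in hippocampus of 0.00686, 0.0274 and 0.00431 and changes in cerebellum of -0.00577, -0.00689 and -0.00583. None of these 3 calls was kept after scaling. At these 3 sites the cortex P0 score was between 0.992 and 1.00, against 0.951 to 0.981 at P0 in the other regions, which carry the other index set.

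**Figure D5:**
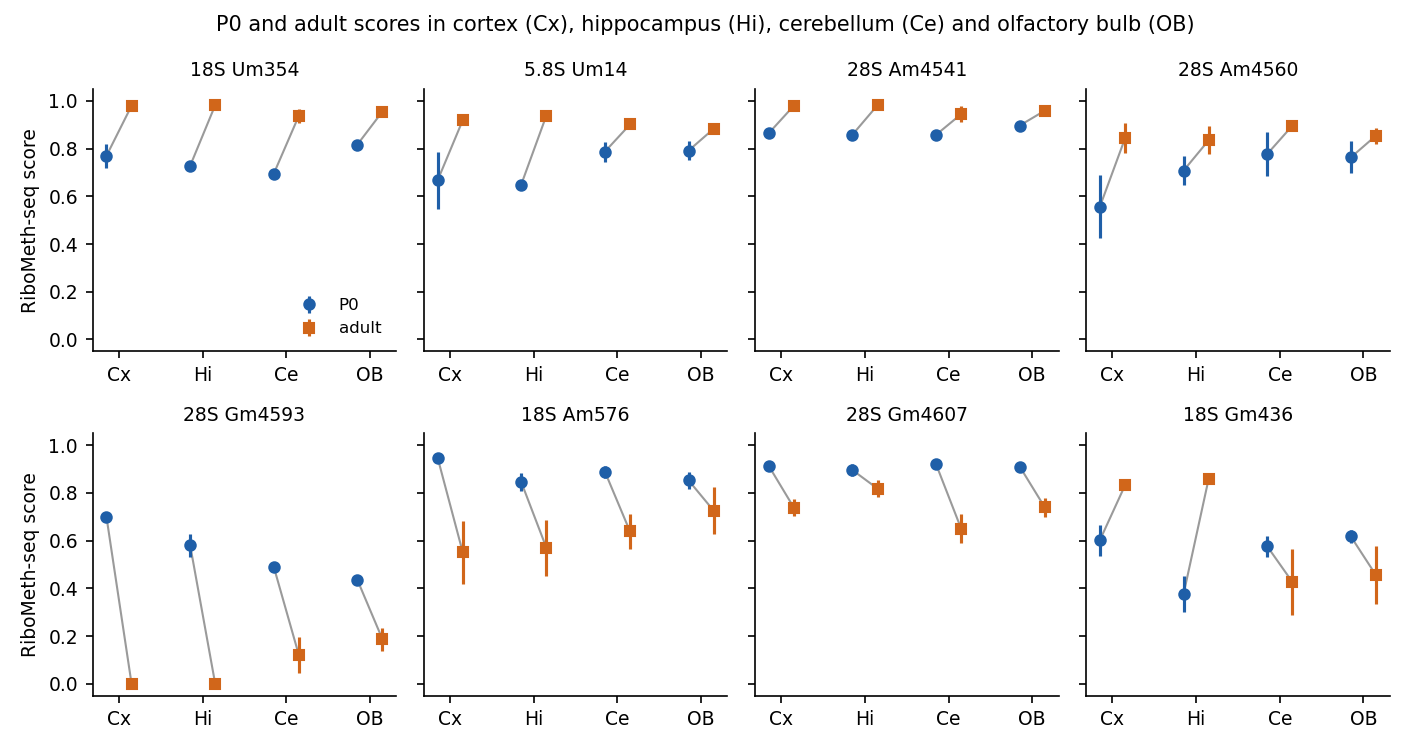
Mean score (y axis) at P0 (circles) and in the adult (squares) for 8 sites in cortex, hippocampus, cerebellum and olfactory bulb; bars are the SD of 3 libraries. The upper sites gain in all 4 regions, 28S Gm4593, 18S Am576 and 28S Gm4607 lose in all 4, and 18S Gm436 gains in cortex and hippocampus only, while its adult mean is below its P0 mean in the other regions.

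The other 50 tested sites were not called. Their changes ranged from -0.231 to 0.0695, and for 21 of them the 95% interval lay within 0.03 of no change. At 18S Gm867 (SNORD98) the score was 0.911 ± 0.00598 at P0 and 0.926 ± 0.00357 in the adult, at 18S Gm1447 (SNORD127) it was 0.908 ± 0.00578 and 0.907 ± 0.0212, and at 28S Um3904 (SNORD52) it was 0.964 ± 0.0307 and 0.970 ± 0.0193. Their intervals reached from -0.00991 to 0.0411, from -0.0373 to 0.0372 and from -0.0369 to 0.0471. These are bounds on the change and do not show that the ages were alike. In H9 cells 28S Um3904 was the site where the index sets differed most.

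The largest change without a call was at 28S Am1511 (SNORD32), with 0.981, 0.982 and 0.986 at P0 and 0.946, 0.881 and 0.431 in the adult. It rested on adult library 3, and limma gave an adjusted p of 0.158. The library with the same index sequence was the lowest of its 3 at this site in 9 of the 9 mouse samples that carry index set 2, with values between 0.119 and 0.658. In H9 cells index set 2 differed from set 1 by -0.139 at this site. In the adult cortex, library 3 was also the lowest at 28S Am3697 and 18S Am468, again as in 9 of 9 samples with that index, and at Am3697 the H9 index sets differed by -0.149. It was the lowest of the 3 adult libraries at 66 of the 107 tested sites, and without it 69 sites were called in place of 57.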

How the data were processed

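The authors' deposited files give read ends as raw counts at every rRNA nucleotide, and per the file headers a value called a percentage that is a fraction from 0 to 1. Recomputing this deposited fraction from the read-end counts gave a largest difference of 5.00155e-13 over 282324 values of 42 mouse libraries. Per the labels' protocols, libraries held fragments of 20–40 nucleotides and were run on the Ion Proton. No source used here names the aligner. The site list came from general knowledge, and 18S Cm621 was dropped after its values were seen. The older 28S numbers were placed on the human sequence by base and by the highest H9 scores, then aligned to mouse, so the scores of H9 cells, but not those of cortex, chose the positions. Tested sites had a mean score of at least 0.2 over the mouse samples and a neighbour mean of at least 50 read ends. Scores were compared with limma 3.58.1 (R 4.3.3, trended prior, adjusted p below 0.05 over 107 sites), with edgeR 4.0.16 and DESeq2 1.42.0 on read ends, offset by the neighbour mean, as alternatives. On simulated sites limma called 4, 8, 10 and 10 of 10 for losses of 0.05, 0.1, 0.2 and 0.4, and 2 of 67 unchanged sites. The simulation held no shift between libraries or index sets, so it does not give the error rate where such shifts are present. Sites named are, among the called sites whose libraries did not overlap, the 12 largest losses and up to 12 largest gains (11 were called), 10 preset sites, and sites called between regions. Members and lists were chosen with earlier results of these data known.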

Additional observations from a re-analysis of the deposited data

Results flagged for a closer look

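The change from P0 to adult in cortex differed from the mean change in hippocampus, cerebellum and olfactory bulb at 6 sites by limma's interaction test over 24 libraries. The difference was -0.299 at 28S Gm4593, 0.0632 at 18S Um1442, 0.0381 at 28S Am3739, -0.0233 at 28S Um4197, -0.0215 at 28S Um4468 and -0.0151 at 28S Am2802. Cortex P0 was the only group of this test with index set 1, so the region and the index set cannot be told apart in it. With scores scaled by library, 28S Um4197, 28S Um4468 and 28S Am2802 were no longer called. Without olfactory bulb, 18S Um1442, 28S Am3739 and 28S Am2802 were no longer called (adjusted p = 0.0784 each). Without a trend in the limma prior, 28S Am3739, 28S Um4468 and 28S Am2802 were lost (adjusted p = 0.0502, 0.0941 and 0.181). The call at 28S Am3739 was also lost without cortex P0 library 1 (limma adjusted p = 0.0607). That at 28S Um4468 was lost without hippocampus (0.217), and that at 28S Am2802 without cortex adult library 2 (0.0525).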

How the results depend on the processing

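The count of called sites in adult against P0 cortex was 57. It was 27 from 3′ read ends only (6 higher and 21 lower in the adult), 25 with all mouse libraries in the fit (7 and 18) and 24 in the fit over every rRNA position (4 and 20). From 5′ ends only 75 sites were lower. Scaling to the upper quartile gave 19 higher and 25 lower, and a score minus its library median, added after seeing the data, gave 31 and 18. Leaving out 1 library gave 48 to 69 calls, with 5 to 12 higher and 38 to 57 lower, the lowest count of gains without adult library 2. Leaving out a library after scaling, also added later, gave 23 calls without P0 library 1 (13 higher, 10 lower), 35 without P0 library 2 (20, 15), 29 without P0 library 3 (17, 12), 37 without adult library 1 (16, 21), 35 without adult library 2 (15, 20) and 48 without adult library 3 (18, 30). edgeR called 71 sites and DESeq2 77. With 18S Cm621 kept in the list, also added later, 58 sites were called.

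From 5′ ends only, the change was -0.0322 at 18S Gm436, -0.00420 at 18S Um1442, -0.0208 at 18S Um428, -0.00273 at 28S Am3739 and -0.0221 at 5.8S Gm75. At 28S Am2802 it was 0.00173 and 0.00184 after scaling without adult library 1 or 2, and 0.00375 with the median taken off. For the contrast between regions the count of 6 became 3 without a trend, 3 after scaling, 13 without cerebellum and 3 without olfactory bulb, and 5 to 8 without 1 cortex library. An index term could not be fitted, because only cortex P0 carried set 1. A replicate block by library number gave 54 calls, and same-numbered libraries deviated with correlations of 0.112, -0.230 and 0.0461, so the numbers were not taken to pair the samples. Beyond the smaller number of libraries in the repeats that left one out, the cause of these differences was not tested. The median SD between libraries was above the median counting error in both groups.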
